A study of Homo sapiens with 6 samples.

Results

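The integrin and laminin genes comprised 36 genes, 25 coding for integrin subunits and 11 for laminin chains, read out by 54 of the 50599 probes on the array. Members were all probes whose gene name in the scanner files was one of the 36 symbols, out of 36337 gene names in all. RNA came from HSC-3, KON and Ca9-22, 3 lines established from oral squamous cell carcinoma (OSCC). Each line was transfected either with siDLEU1-2, a small interfering RNA (siRNA) against the long noncoding RNA DLEU1, or with siCtrl, a commercial negative control siRNA. RNA was taken 72 h after transfection, labelled with Cy3 from 100 ng of total RNA and hybridised to 1 array for each line and siRNA, so 6 arrays on 1 slide were available. The 3 lines served as the replicates of the siRNA comparison, and no single line had a replicate of its own. The p-values of that comparison set the mean response against its spread over the lines. In that spread, differences between lines and noise between arrays cannot be told apart. Only 1 siRNA sequence against DLEU1 was on these arrays. As a check of the labels, the DLEU1 probe read a relative signal, in multiples of the 75th percentile of an array, of 2.63, 4.46 and 2.94 with siCtrl in HSC-3, KON and Ca9-22, and of 0.153, 0.359 and 0.272 with siDLEU1-2.

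Integrins are receptors made of 1 alpha and 1 beta subunit that bind extracellular matrix outside the cell and the cytoskeleton inside it. Laminins are trimers of an alpha, a beta and a gamma chain and are the main adhesive proteins of the basement membrane under an epithelium. In squamous epithelium, the receptor of ITGA6 and ITGB4 anchors basal cells to an epidermal laminin containing the LAMA3 and LAMB3 chains at hemidesmosomes, whereas receptors built on ITGB1 sit in focal adhesions. Subunits that pair with ITGAV bind matrix proteins such as fibronectin and vitronectin, and several of them bind latent TGF-β.

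The sequences of the siRNA and of the ITGB4 probe are shown because 1 of the 54 probes, the only one for ITGB4, holds the letters that pair with the siRNA seed. Capitals mark bases 2 to 8 of the antisense strand, the seed, and the 7 bases of the ITGB4 probe that pair with it.
siDLEU1-2 sense strand: cagggguuaucgcacuuaagc
siDLEU1-2 antisense strand: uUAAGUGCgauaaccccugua
ITGB4 probe, bases 31 to 60: gacccagcctttgttctGCACTTAataaat

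The heptamer GCACTTA was searched in the orientation in which the probes are written, and lay at bases 48 to 54 of the 60-base ITGB4 probe. It stood in 57 of the 19956 probes analysed (0.286%). The base after it also paired with base 1 of the antisense strand, and 10 of the 21 antisense positions paired in all. AATAAA, the letters of the canonical polyadenylation signal, followed at bases 54 to 59 and shared 1 base with the heptamer, and 7.88% of all probes on the array held AATAAA. The ITGB4 probe maps to chr17:73753824-73753883 on the plus strand in hg19, the build of the array's annotation. No exon or UTR annotation of that build was used here.

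Levels are given as relative signal, the processed signal of a probe divided by the 75th percentile of its array, and a log2 fold change is the log2 relative signal with siDLEU1-2 minus that with siCtrl in the same line. Levels of different probes cannot be set against each other. A probe was analysed when, in each line, 1 array or both read it well above background. This filter kept 29 of the 54 probes, for 23 of the 36 genes, and 24 of the 29 were well above background on all 6 arrays. It kept 14 of the 25 integrin genes and 9 of the 11 laminin genes. In KON, 29 of the 36 genes had a probe well above background on both arrays, against 24 in HSC-3 and 21 in Ca9-22. Of the 36, 20 genes had this in all 3 lines. ITGA10, ITGA2B, ITGA8, ITGAL and LAMB4 were not well above background on any array.

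**Figure D1:**
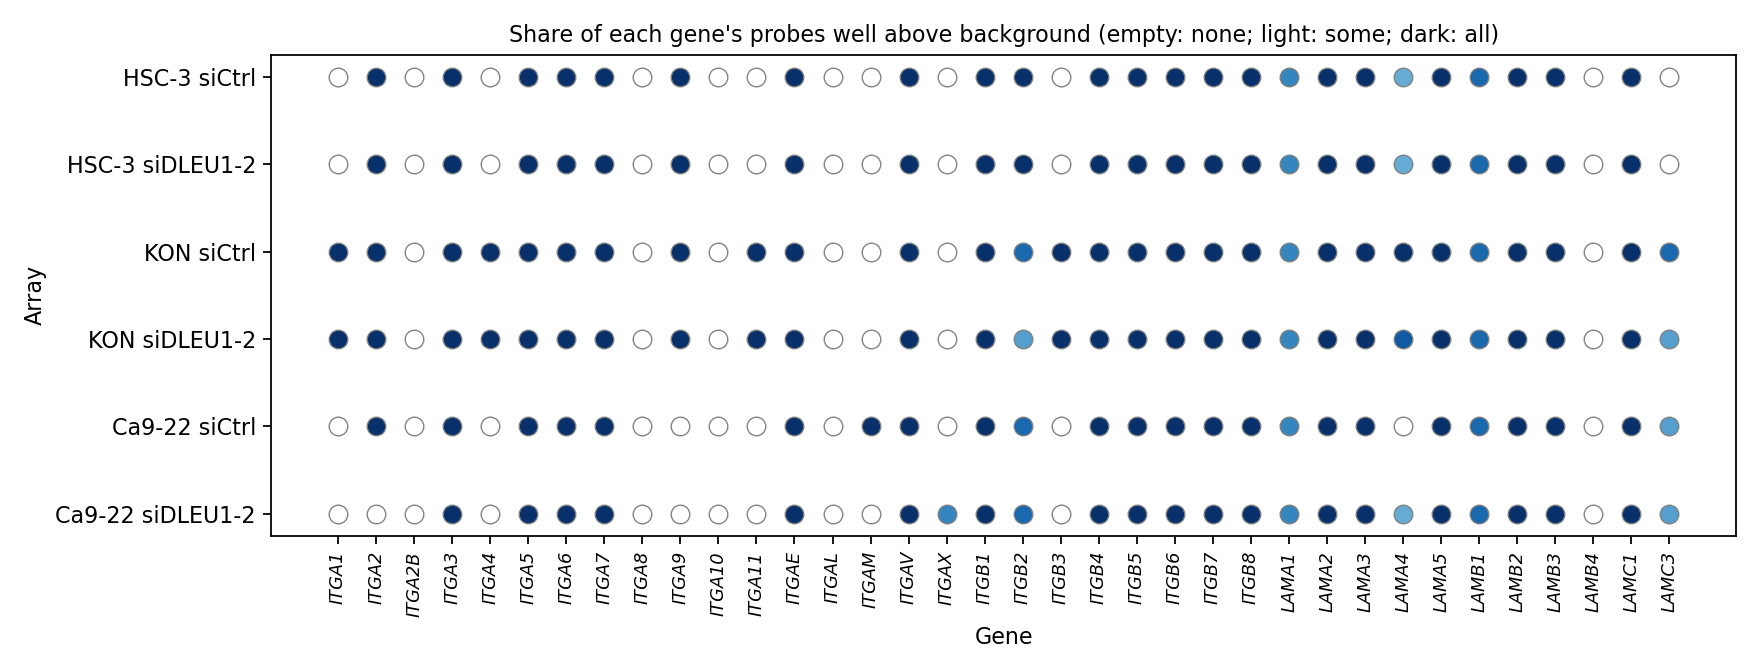
Detection of the 36 integrin and laminin genes on the 6 arrays. Columns are genes, rows are arrays, and the shade of a circle is the share of the gene's probes well above background. ITGA1, ITGA4, ITGA11 and ITGB3 were well above background only on the 2 KON arrays.

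The lines expressed keratinocyte markers, and part of these differed with the siRNA. All 10 genes of a keratinocyte and squamous list passed the filter, and 6 of their 13 probes were lower with siDLEU1-2 in the limma fit described below (TP63, KRT6A, DSG3, SFN and both probes of PKP1), none higher. Over all 19956 probes analysed, 4.52% were called lower and 3.98% higher. The summed relative signal of the list went from 1825 to 1188 in HSC-3, from 792 to 551 in KON and from 555 to 705 in Ca9-22. Of 8 fibroblast and mesenchymal genes, 2 passed the filter, 5 were well above background on no array (COL1A2, COL3A1, PDGFRA, PDGFRB and LUM), and COL1A1 was higher with siDLEU1-2 (1.45 ± 0.57 in mean log2 fold change, SD over 3 lines, limma adjusted p = 0.0423); the list summed to 1.11 to 1.43 with siCtrl and 2.28 to 3.64 with siDLEU1-2. Of 10 leukocyte genes, 5 passed the filter, CD2 and SPI1 were well above background on no array, CD68 was lower (-1.39 ± 0.30, adjusted p = 0.0278), and the list summed to 62.2 to 150.0 with siCtrl and 79.3 to 130.2 with siDLEU1-2. Of the 5 genes each for endothelium and platelets, 2 and 1 passed, none was called, and their sums were at most 1.83 and 0.363. The part of these marker genes in the results below was not tested. In bulk RNA, fewer cells of a type and less RNA per cell cannot be told apart.

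The first question was which integrin and laminin genes changed after siDLEU1-2 in the mean over the 3 lines. Of the kept members, 4 integrin subunits were called, and no laminin chain was. ITGB4 fell, and ITGAV, ITGB8 and ITGB2 rose, in limma, blocked by cell line, with p-values adjusted over all 19956 probes by Benjamini-Hochberg. Higher calls made up 3 of the 29 member probes (10.3%) against 3.98% of all probes, and lower calls 1 of 29 (3.45%) against 4.52%. At an unadjusted p under 0.05, 12 of 29 member probes (41.4%) passed, against 29.5% of all. By the fold change rule, over 2-fold in size in each of the 3 lines, 2 of 29 passed (6.90%, ITGB4 lower and ITGB2 higher) against 4.38% of all probes. With dim values raised to the lowest signal well above background the count was 1, without ITGB2, whose siCtrl array in Ca9-22 was not well above background. The direction was the same in all 3 lines for 10 probes that were higher and 6 that were lower, 55.2% of the members against 53.6% of all probes, and 13 were mixed. The median of the mean log2 fold change was 0.22 over the members and 0.0073 over all probes, and the median size was 0.58 against 0.29. With any 1 line left out, limma called 0 probes of the whole array, and so 0 members, while the means of ITGB4 ranged from -2.92 to -2.40 and those of ITGAV from 0.81 to 0.97.

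**Figure D2:**
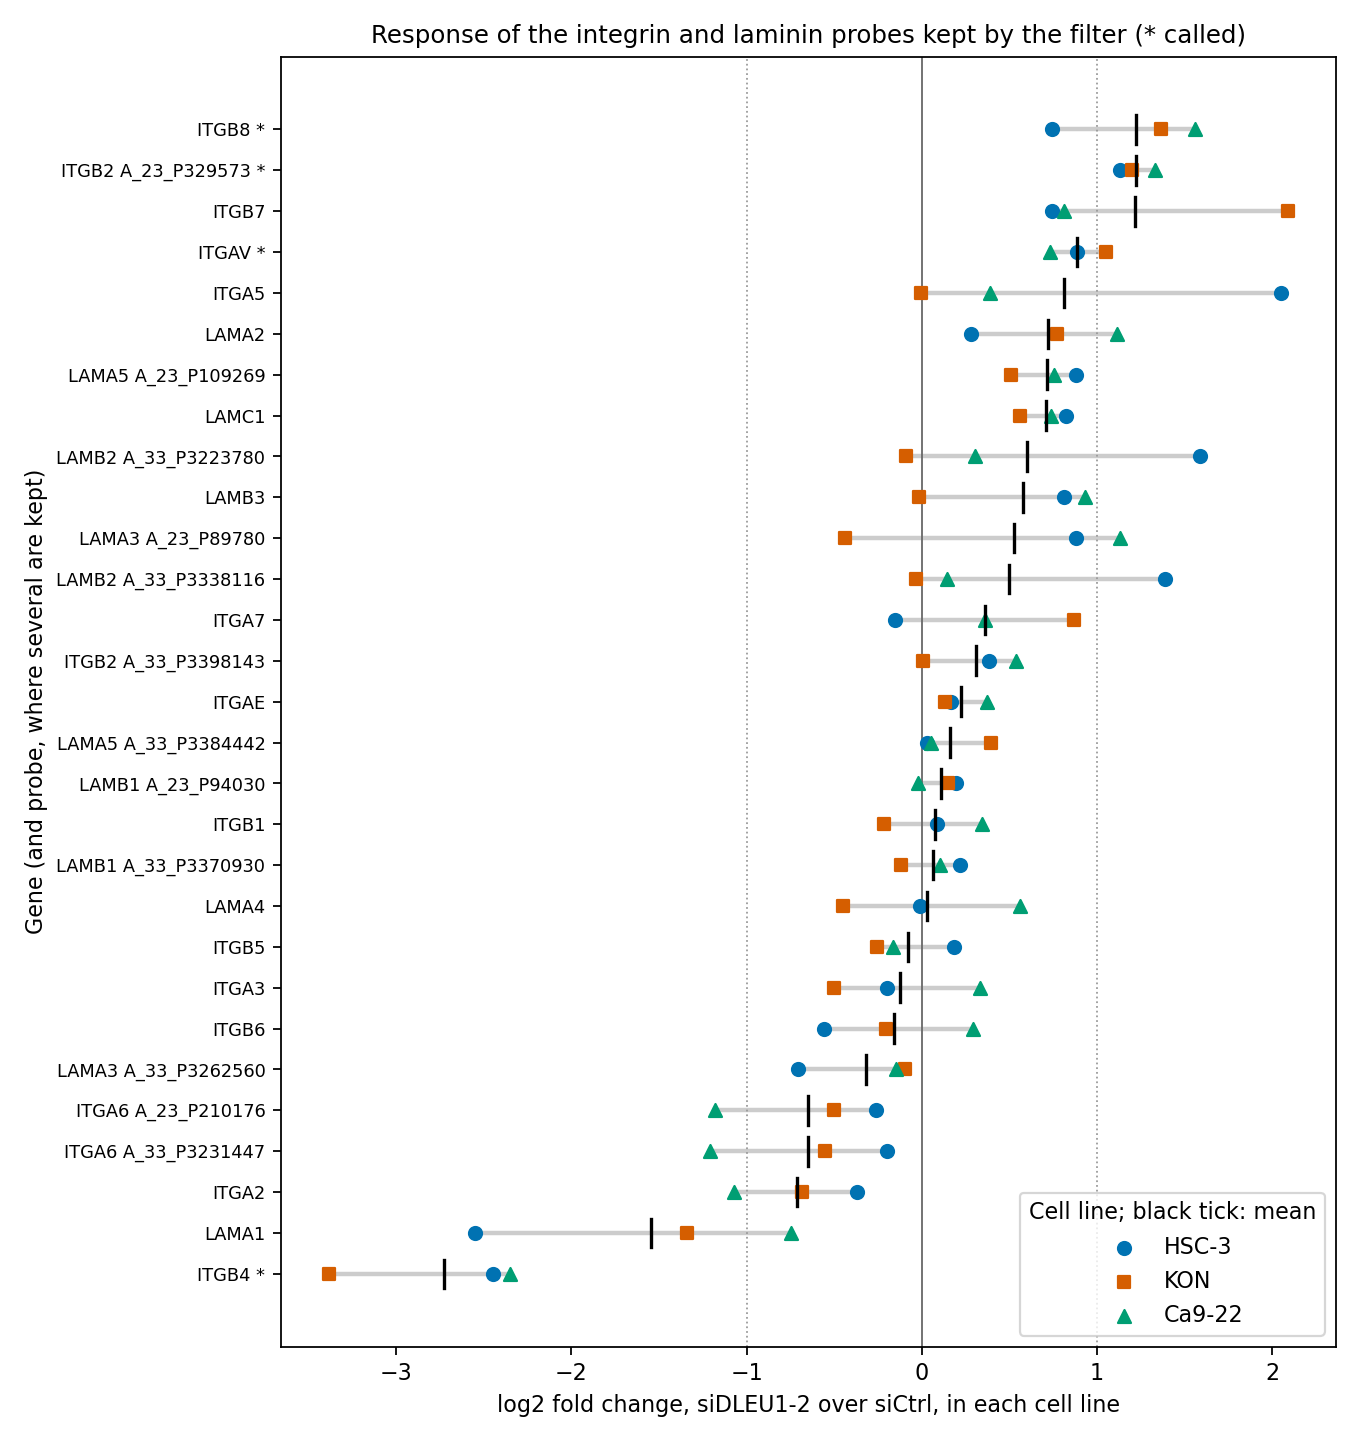
Response to siDLEU1-2 of the 29 integrin and laminin probes kept by the filter, sorted by mean. Points are the log2 fold changes in HSC-3, KON and Ca9-22, the black tick is their mean, dotted lines mark 2-fold, and an asterisk marks a limma call. ITGB4 lies at the bottom with a mean of -2.73 and ITGB8 at the top with 1.22.

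ITGB4, the beta subunit of the hemidesmosome receptor, had the largest change of the 29. With siCtrl, HSC-3 read a relative signal of 162.6, KON of 46.2 and Ca9-22 of 84.0, and with siDLEU1-2 they read 29.8, 4.42 and 16.5. All siDLEU1-2 arrays read lower than every siCtrl array. The log2 fold changes were -2.45, -3.38 and -2.35, with a mean of -2.73 ± 0.57 (SD, n = 3 lines; 95% confidence interval -3.39 to -2.07; limma adjusted p = 0.0247). This mean was the 34th lowest of 19956 probes, and the second lowest of the 57 probes that hold the seed heptamer. Those 57 had a median of -0.58 and a range of -2.76 to 2.81, and 19 of them (33.3%) were called lower, against a median of 0.0073 and 4.52% called lower over all probes. With only 1 ITGB4 probe on the array, no second probe of the gene could be compared.

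ITGA6, the partner of ITGB4 and also of ITGB1, was read by a pair of kept probes with nearly the same response. The probe at chr2:173370556-173370615 read 40.4 then 33.6 in HSC-3, 18.0 then 12.7 in KON and 17.0 then 7.51 in Ca9-22, the siCtrl value first, as in all such pairs below. Each line was lower with siDLEU1-2, while the ranges of the siRNA groups overlapped between lines. The mean log2 fold change was -0.65 ± 0.47 (SD, n = 3 lines), and the limma adjusted p of 0.14 missed the threshold. The other probe, at chr2:173369203-173369262, gave -0.65 ± 0.52 with an adjusted p of 0.152.

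The genes that build hemidesmosomes around these subunits gave no call. All 6 genes of the list (PLEC, DST, COL17A1, CD151, KRT5 and KRT14) passed the filter with 11 probes, of which 0 were called in limma, and their median log2 fold change was -1.14. KRT5 and KRT14 also stand in the keratinocyte list. COL17A1, the transmembrane collagen of the hemidesmosome, read 16.1 then 6.67 in HSC-3, 6.54 then 1.96 in KON and 4.32 then 2.73 in Ca9-22. It was lower in each line, with a mean of -1.22 ± 0.54 (SD, n = 3 lines) and a limma adjusted p of 0.0524. For DST, the gene of the plaque protein that links to keratin, 2 of the 3 probes gave means of -1.30 and -1.54, with -2.63 and -2.90 in HSC-3 and -0.62 to -0.92 in KON and Ca9-22 (adjusted p = 0.143 and 0.11 over the lines), and the third gave -0.10. The keratin 14 probes disagreed as well, with means of -1.72, -1.57 and 0.0080. PLEC and CD151 were within 0.20 of 0 in the mean.

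ITGB1, the subunit shared by most collagen, fibronectin and laminin receptors, was nearly level. Its probe, printed at 10 spots on each array, read 9.86 then 10.5 in HSC-3, 7.73 then 6.67 in KON and 5.42 then 6.88 in Ca9-22. The siRNA groups overlapped and the lines differed in direction, giving an average response on the log2 scale of 0.07 ± 0.28 (SD, n = 3 lines; 95% confidence interval -0.37 to 0.51; limma adjusted p = 0.81).

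The alpha partners of ITGB1 had no common direction. ITGA3, a laminin receptor subunit, read 32.2 then 28.1 in HSC-3, 7.02 then 4.97 in KON and 6.87 then 8.65 in Ca9-22. It was lower in 2 lines and higher in the other, with a mean of -0.12 ± 0.42 (SD, n = 3 lines, limma adjusted p = 0.736). ITGA2, a collagen receptor subunit, read 0.249 and 0.193, 0.345 and 0.214, and 0.178 and 0.0846 in HSC-3, KON and Ca9-22, where the last array was not well above background. It was lower in each line, at -0.37, -0.69 and -1.07 (at least 1.74-fold in Ca9-22, against the lowest signal well above background), and the mean of -0.71 ± 0.35 had a limma adjusted p of 0.0853. With normexp background correction the mean of this dim probe was -0.24 (limma adjusted p = 0.232).

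ITGA5, the fibronectin receptor subunit, differed between lines in its response. Its relative signal was 3.87 with siCtrl and 16.1 after siDLEU1-2 in HSC-3, 2.99 in both arrays of KON, and 2.08 and 2.73 in Ca9-22. The HSC-3 array with siDLEU1-2 stood above the other 5. The log2 fold changes were 2.05, -0.0014 and 0.39, and the mean of 0.81 ± 1.09 (SD, n = 3 lines) had a limma adjusted p of 0.286. The difference between lines rests on 1 array for each line and siRNA and has no test. ITGA7, another laminin-binding partner, gave -0.15, 0.87 and 0.36 (adjusted p = 0.37).

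ITGAV rose by a similar amount in each line. Its probe, at chr2:187545295-187545354 and with 10 spots on each array, read 9.56 then 17.7 in HSC-3, 10.2 then 21.1 in KON and 12.4 then 20.7 in Ca9-22. Every siDLEU1-2 array was above every siCtrl array. The log2 fold changes were 0.89, 1.05 and 0.73, with a mean of 0.89 ± 0.16 (SD, n = 3 lines; 95% confidence interval 0.51 to 1.27; limma adjusted p = 0.0377).

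Of the beta subunits that pair with ITGAV, ITGB8 rose and ITGB5 and ITGB6 gave no call. ITGB8, whose pair with ITGAV binds latent TGF-β, is read by a probe at chr7:20455137-20455196. It read 0.311 then 0.522 in HSC-3, 0.140 then 0.363 in KON and 0.762 then 2.24 in Ca9-22. Every line was higher with siDLEU1-2, while the KON and HSC-3 arrays with siDLEU1-2 stayed below the Ca9-22 array with siCtrl. The log2 fold changes of 0.75, 1.37 and 1.56 gave a mean of 1.22 ± 0.42 (SD, n = 3 lines; 95% confidence interval 0.68 to 1.77; limma adjusted p = 0.0404). With normexp background correction the mean was 0.83 and the adjusted p 0.0534.

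ITGB5, a vitronectin receptor subunit, read 2.51 then 2.85 in HSC-3, 11.4 then 9.56 in KON and 3.31 then 2.95 in Ca9-22. The KON arrays stood apart from the others whatever the siRNA, and the mean log2 fold change was -0.08 ± 0.23 (SD, n = 3 lines, limma adjusted p = 0.778). ITGB6, the epithelial partner of ITGAV, read 0.539 and 0.365, 0.799 and 0.694, and 0.255 and 0.312 in the same order. It had no common direction, with a mean of -0.16 ± 0.43 and an adjusted p of 0.658.

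ITGB2, the beta subunit of the leukocyte integrins, rose at 1 of its 3 probes. The probe at chr21:46305926-46305985 on the minus strand read 4.02 then 8.83 in HSC-3, 0.765 then 1.76 in KON and 0.0494 then 0.124 in Ca9-22, whose siCtrl array was not well above background. HSC-3 and KON were over 2-fold higher with siDLEU1-2, Ca9-22 was at least 1.35-fold higher against the lowest signal well above background, and the lines lay far apart. The log2 fold changes from the measured signals were 1.13, 1.20 and 1.33, with a mean of 1.22 ± 0.10 (SD, n = 3 lines; 95% confidence interval 0.87 to 1.58; limma adjusted p = 0.0251). The adjusted p was 0.0566 when dim values were raised to the lowest signal well above background, with a mean of 0.92, and 0.0526 with normexp background correction, with a mean of 0.79. The alpha partners of ITGB2 were near background: ITGAL was well above it on no array, and ITGAM and ITGAX on 1 each. PTPRC, the pan-leukocyte marker, was well above background at 1 of its 5 probes and on 2 arrays, those of HSC-3 and KON with siDLEU1-2, at 0.146 and 0.143 against 0.0508 and 0.0444 with siCtrl. Of the 5 leukocyte genes that passed the filter, CD68 was called lower (-1.39), and LCP1, CD79A, CORO1A and CD14 gave no call at means of 0.11, -0.03, 0.22 and 0.51. The part of these genes in the ITGB2 result was not tested.

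ITGB7 and ITGAE, which pair with each other in lymphocytes of epithelia, gave no call. ITGB7 read 0.200 then 0.336 in HSC-3, 0.390 then 1.66 in KON and 0.193 then 0.340 in Ca9-22. The KON array with siDLEU1-2 was the highest of the 6, and the mean log2 fold change of 1.22 ± 0.76 (SD, n = 3 lines) had a limma adjusted p of 0.0833. ITGAE was 0.13 to 0.37 higher in the 3 lines (adjusted p = 0.351). CDH1, the E-cadherin that serves as ligand of this pair, was the only call among the 10 kept probes, for 9 of 18 genes, of other integrin ligands, whose median was 0.17. It read 10.71 then 93.0 in HSC-3, 11.3 then 86.0 in KON and 10.1 then 65.7 in Ca9-22, and rose by 2.92 ± 0.21 (SD, n = 3 lines, limma adjusted p = 0.0227).

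**Figure D3:**
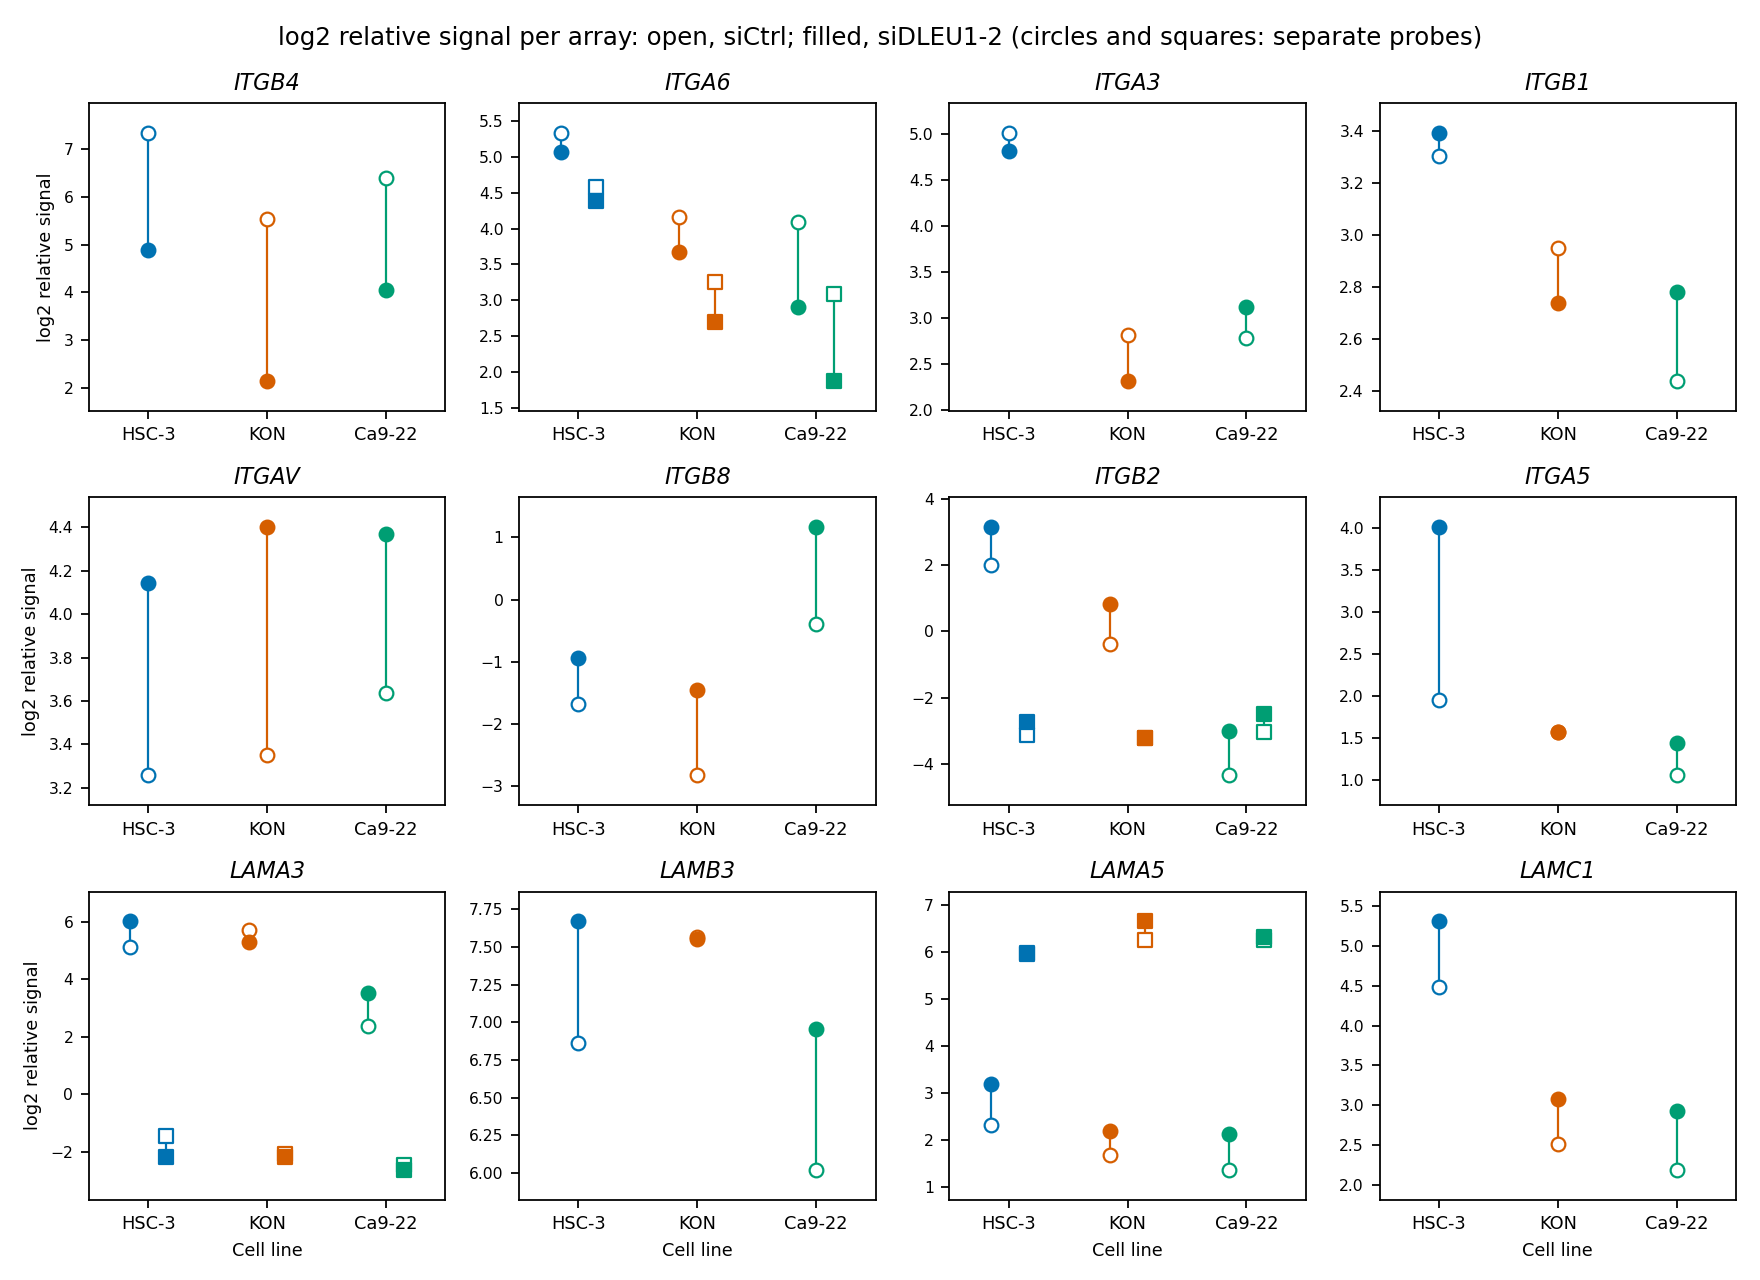
The log2 relative signal of 12 integrin and laminin genes on each array. Open symbols are siCtrl, filled symbols siDLEU1-2, joined by a line within each cell line, and squares are a second kept probe of the gene. ITGB4 is lower and ITGAV higher on every siDLEU1-2 array, whereas ITGA5 differs in HSC-3 far more than in KON.

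No laminin chain passed the test, and the chains of the epidermal laminin had higher log2 fold changes in HSC-3 and Ca9-22 than in KON at 1 probe each, while the second kept probe of LAMA3 was lower in every line, at -0.71, -0.09 and -0.15 in HSC-3, KON and Ca9-22. LAMB3 read 116 then 204 in HSC-3, 189 then 188 in KON and 64.9 then 124 in Ca9-22. It was higher with siDLEU1-2 in HSC-3 and Ca9-22 and level in KON, at log2 fold changes of 0.81, 0.93 and -0.01, and the mean of 0.58 ± 0.52 (SD, n = 3 lines) had a limma adjusted p of 0.189. LAMA3, at its probe at chr18:21534735-21534794, read 35.2 then 64.7 in HSC-3, 53.0 then 39.2 in KON and 5.22 then 11.4 in Ca9-22. It too was higher in HSC-3 and Ca9-22 (0.88 and 1.13) and lower in KON (-0.44), with a mean of 0.52 ± 0.84 and an adjusted p of 0.372. With 1 array for each line and siRNA, the difference between KON and the other 2 lines was not tested.

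The chains of the laminins common to many basement membranes, LAMA5, LAMB1, LAMB2 and LAMC1, came closer to the threshold at 2 probes. LAMC1, the gamma chain of most laminins, read 22.4 then 39.7 in HSC-3, 5.70 then 8.42 in KON and 4.55 then 7.59 in Ca9-22. Each line was higher with siDLEU1-2, by 0.82, 0.56 and 0.74, and the mean of 0.71 ± 0.13 (SD, n = 3 lines; 95% confidence interval 0.34 to 1.07) had a limma adjusted p of 0.0522. Over the 13 alternatives the adjusted p ran from 0.0298 to 1, and 3 of them called LAMC1.

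LAMA5, at its probe at chr20:60885302-60885361, read 5.00 then 9.22 in HSC-3, 3.23 then 4.61 in KON and 2.59 then 4.37 in Ca9-22. Each line was higher, with a mean of 0.72 ± 0.19 (SD, n = 3 lines) and a limma adjusted p of 0.0563, which ran from 0.0344 to 0.949 over the 13 alternatives and passed in 2. LAMB1 was level at both kept probes (0.11 ± 0.11 and 0.07 ± 0.17, adjusted p = 0.639 and 0.8). LAMB2 was higher in HSC-3 at both of its probes, by 1.59 and 1.39, and within 0.31 of 0 in KON and Ca9-22 (adjusted p = 0.331 and 0.363).

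LAMA1 and LAMA2, the alpha chains of embryonic and muscle laminins, had means of opposite sign, without a call. LAMA1 read 0.577 then 0.0986 in HSC-3, 0.649 then 0.256 in KON and 0.121 then 0.0722 in Ca9-22, where the last array was not well above background. It was lower in each line, most in HSC-3 and at least 1.19-fold in Ca9-22, and the mean of -1.54 ± 0.92 (SD, n = 3 lines) had a limma adjusted p of 0.073. With normexp background correction the LAMA1 mean was -0.67 (limma adjusted p = 0.082). LAMA2 was higher in each line, by 0.28, 0.77 and 1.11, with an adjusted p of 0.0998.

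Several members, or some of their probes, were read in KON alone. The 3 probes of ITGA4, a fibronectin and VCAM1 receptor subunit, were well above background only on the KON arrays. The bound compares the mean of the KON arrays with, for each array of another line, the higher of the probe's signal and the lowest signal well above background. By it ITGA4 was at least 13.8-fold, 13.5-fold and 2.69-fold higher in KON than in HSC-3 at its 3 probes, and at least 11.8-fold, 11.6-fold and 2.31-fold higher than in Ca9-22. The same held for 3 of the 4 probes of LAMA4, the alpha chain of endothelial laminins, at 4.15-fold to 13.6-fold against HSC-3 and 3.56-fold to 11.7-fold against Ca9-22. For ITGB3, ITGA1 and ITGA11, at 1 probe each, KON was at least 3.92-fold, 2.88-fold and 2.85-fold above HSC-3. These values have no test, since the probes did not pass the filter. The fourth LAMA4 probe, which did pass, disagreed with the others. It was well above background on both HSC-3 arrays, at 0.098 and 0.097, and on the Ca9-22 array with siDLEU1-2. In KON it read 0.073 and 0.053, and its lines were not called as different (limma F adjusted p = 0.154).

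In KON, the ITGA4 probes responded to siDLEU1-2 by -0.96, -0.59 and 0.27, so they differed in direction. LAMA4 was higher at its 3 KON-restricted probes, by 0.73, 0.55 and 0.30, and the fourth was well above background in KON only with siCtrl, which gives no fold. ITGB3 went from 0.435 to 0.245, ITGA1 from 0.359 to 0.161, and ITGA11 from 0.184 to 0.306, each on 1 array for each siRNA.

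The second question was whether the lines differed in integrin and laminin levels beyond the spread left after the siRNA term. The limma F test over the 3 lines called 19 of the 29 member probes (65.5%), for 18 genes, against 53.8% of all probes. Between HSC-3 and KON 12 member probes were called (41.4% against 36.2% of all), between HSC-3 and Ca9-22 13 (44.8% against 36.6%), and between KON and Ca9-22 13 (44.8% against 33.2%). Among the 19, HSC-3 was the highest line for 10 probes, KON for 6 and Ca9-22 for 3, and Ca9-22 was the lowest for 12. The 2 arrays of a line differ in siRNA, so they are not plain replicates of it. The folds between lines below compare means over both arrays of a line.

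ITGB2 spanned the widest range at the called probe (limma F adjusted p = 0.00285). With the dim Ca9-22 array at the lowest signal well above background, it was at least 55.7-fold higher in HSC-3 than in Ca9-22, and it was 5.14-fold higher in HSC-3 than in KON. ITGB4 was 4.87-fold higher in HSC-3 than in KON and 2.60-fold higher in Ca9-22 than in KON, while HSC-3 and Ca9-22 gave no call (adjusted p = 0.0102, 0.0308 and 0.0783). ITGA3 was 5.09-fold and 3.90-fold higher in HSC-3 than in KON and Ca9-22, which were not called against each other (F adjusted p = 0.00782). The ITGA6 probes were also highest in HSC-3, 2.44-fold to 3.99-fold above the other lines, but with Ca9-22 the lowest.

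Other subunits peaked elsewhere. ITGB5 was 3.91-fold higher in KON than in HSC-3 and 3.35-fold higher than in Ca9-22 (F adjusted p = 0.00716). ITGB8 was 5.80-fold higher in Ca9-22 than in KON and 3.24-fold higher than in HSC-3 (F adjusted p = 0.00768). ITGAV, in contrast, differed by at most 1.23-fold between lines (F adjusted p = 0.353), and the F test did not call ITGB1 and ITGA5 either (0.0689 and 0.0796). The contrast of HSC-3 with Ca9-22 alone called ITGB1, 1.67-fold higher in HSC-3 (adjusted p = 0.0487).

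Among the laminins, LAMC1 was 4.31-fold and 5.08-fold higher in HSC-3 than in KON and Ca9-22 (F adjusted p = 0.00565). LAMA3 was lowest in Ca9-22 at 1 probe, 6.18-fold below HSC-3 and 5.90-fold below KON (F adjusted p = 0.0136), and so was LAMB1 at 1 probe, 3.33-fold and 2.88-fold (0.00709). The second kept probes of LAMA3 and LAMB1 were not called (0.091 and 0.156). LAMA2 ran the other way, 5.71-fold higher in Ca9-22 than in HSC-3 (0.00781). LAMB3 was not called by the F test (0.0608), although its 2.10-fold higher level in KON than in Ca9-22 was called by itself (0.0474).

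**Figure D4:**
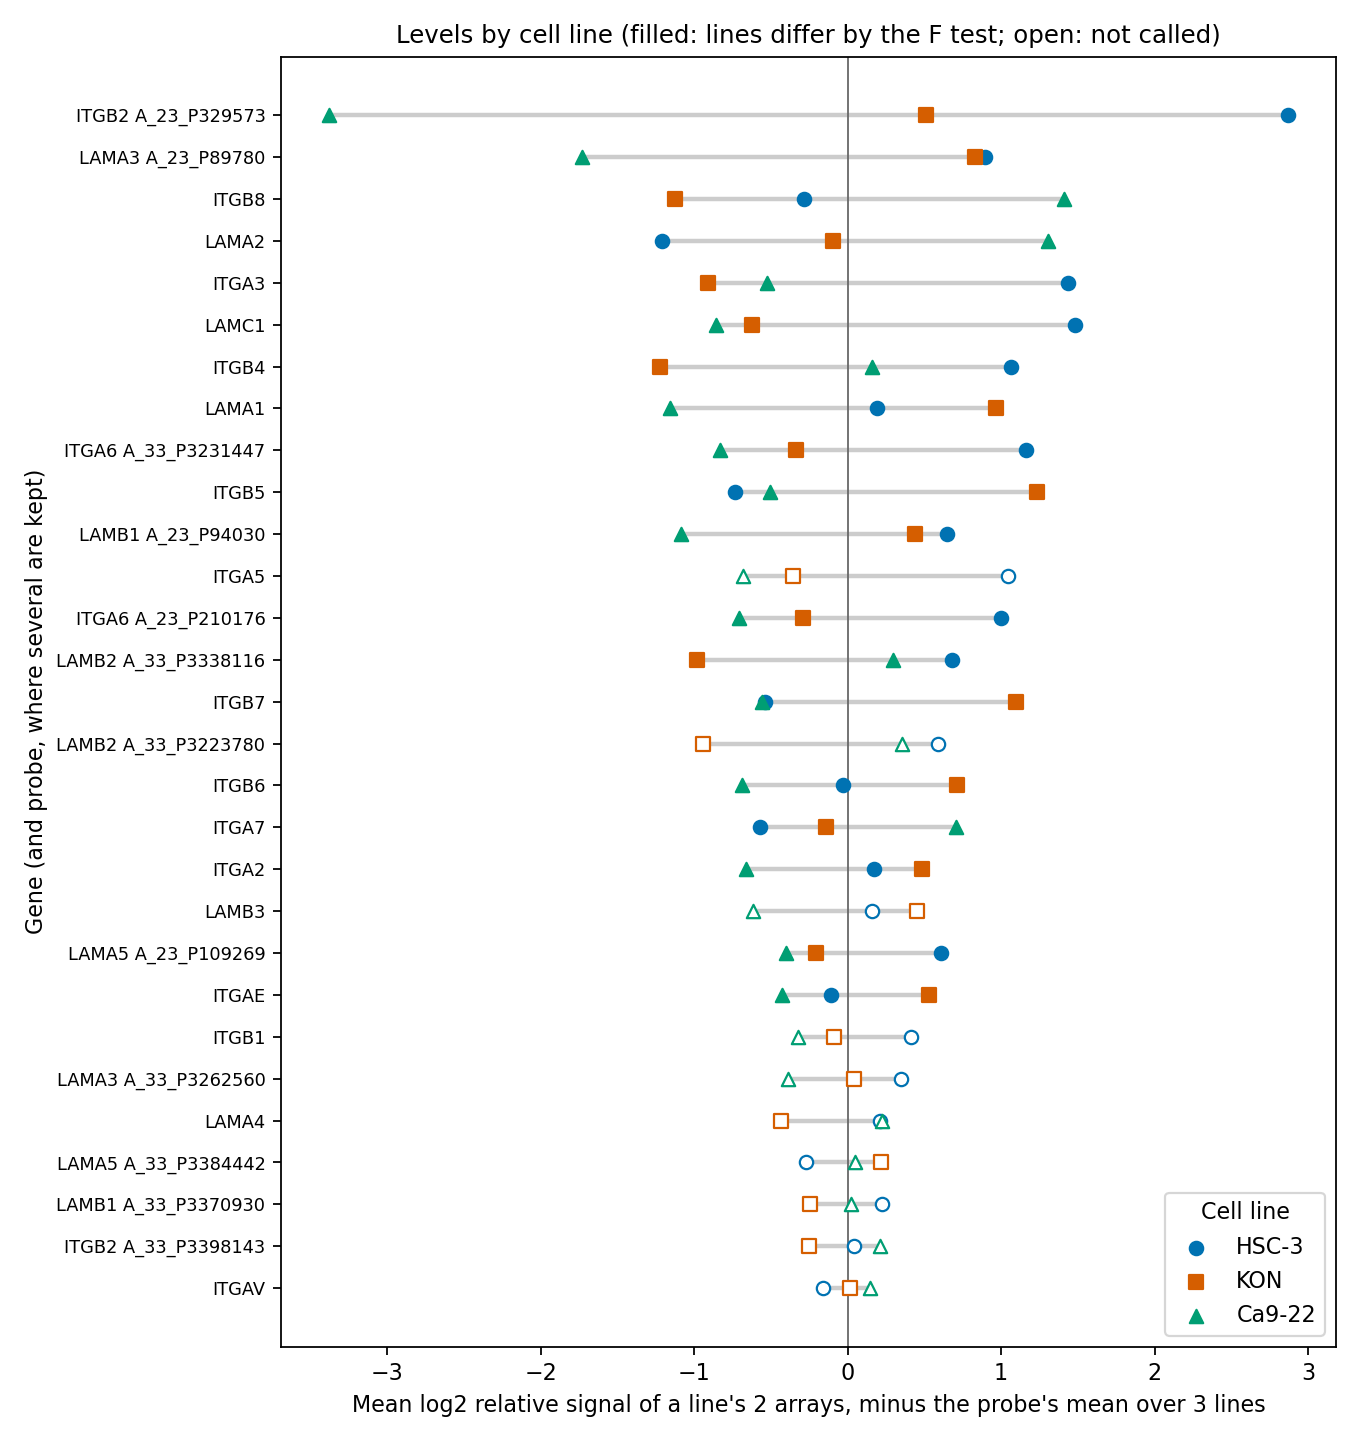
Level of each of the 29 kept probes in HSC-3, KON and Ca9-22. Points are the mean log2 relative signal of a line's 2 arrays minus the probe's mean over the 3 lines, filled where the F test called the probe, and probes are sorted by range. ITGB2 has the widest range and ITGAV the narrowest.

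The third question was whether probes of 1 gene gave the same response. Of the 12 genes with several probes, 6 had a pair of kept probes. In limma on the differences between the probes of a pair, 0 of the 6 were called, as were 0% of the 6732 pairs on the array, while 2 of 6 had an unadjusted p under 0.05, against 18.9% of all pairs. With normexp background correction 0 of the 6 member pairs were called, against 76 of the 6732 pairs on the array.

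The pair for ITGB2 differed most, and the opening bases of both probes are shown.
ITGB2 probe A_23_P329573, bases 1 to 30: gccaatttatttacatttaaacttgtcagg
ITGB2 probe A_33_P3398143, bases 1 to 30: tttttccctcccctttctggaggttttcag

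In hg19 the probes lie 21916 bases apart on the minus strand, the second at chr21:46327902-46327961, designed on another transcript. The second probe read 0.115 then 0.150 in HSC-3, 0.107 then 0.108 in KON and 0.123 then 0.178 in Ca9-22, close to background throughout. Its mean log2 fold change was 0.31 ± 0.27 (SD, n = 3 lines, limma adjusted p = 0.288), and its lines were not called as different (F adjusted p = 0.21). The difference between the probes was 0.91 (95% confidence interval 0.54 to 1.28, limma adjusted p = 0.115). Its size rests in part on signals not well above background. These were the second probe in KON with siDLEU1-2 and the first probe in Ca9-22 with siCtrl. The third ITGB2 probe was not kept. It was 0.81 higher in HSC-3, not well above background in KON, and at least 1.28-fold lower with siDLEU1-2 in Ca9-22, where only the siCtrl array was well above background.

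For LAMA5 the difference was 0.56 (95% confidence interval 0.03 to 1.08, limma adjusted p = 0.248), since the probe at chr20:60920556-60920615 gave a mean of 0.16 ± 0.21. For LAMA3 it was 0.84 (-0.46 to 2.14, adjusted p = 0.418), with the second probe at chr18:21375992-21376051. The pairs for ITGA6, LAMB1 and LAMB2 differed by -0.0045 (-0.23 to 0.22), 0.04 (-0.29 to 0.37) and -0.10 (-0.37 to 0.17). The intervals for these 3 genes lie within 0.38 of 0.

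**Figure D5:**
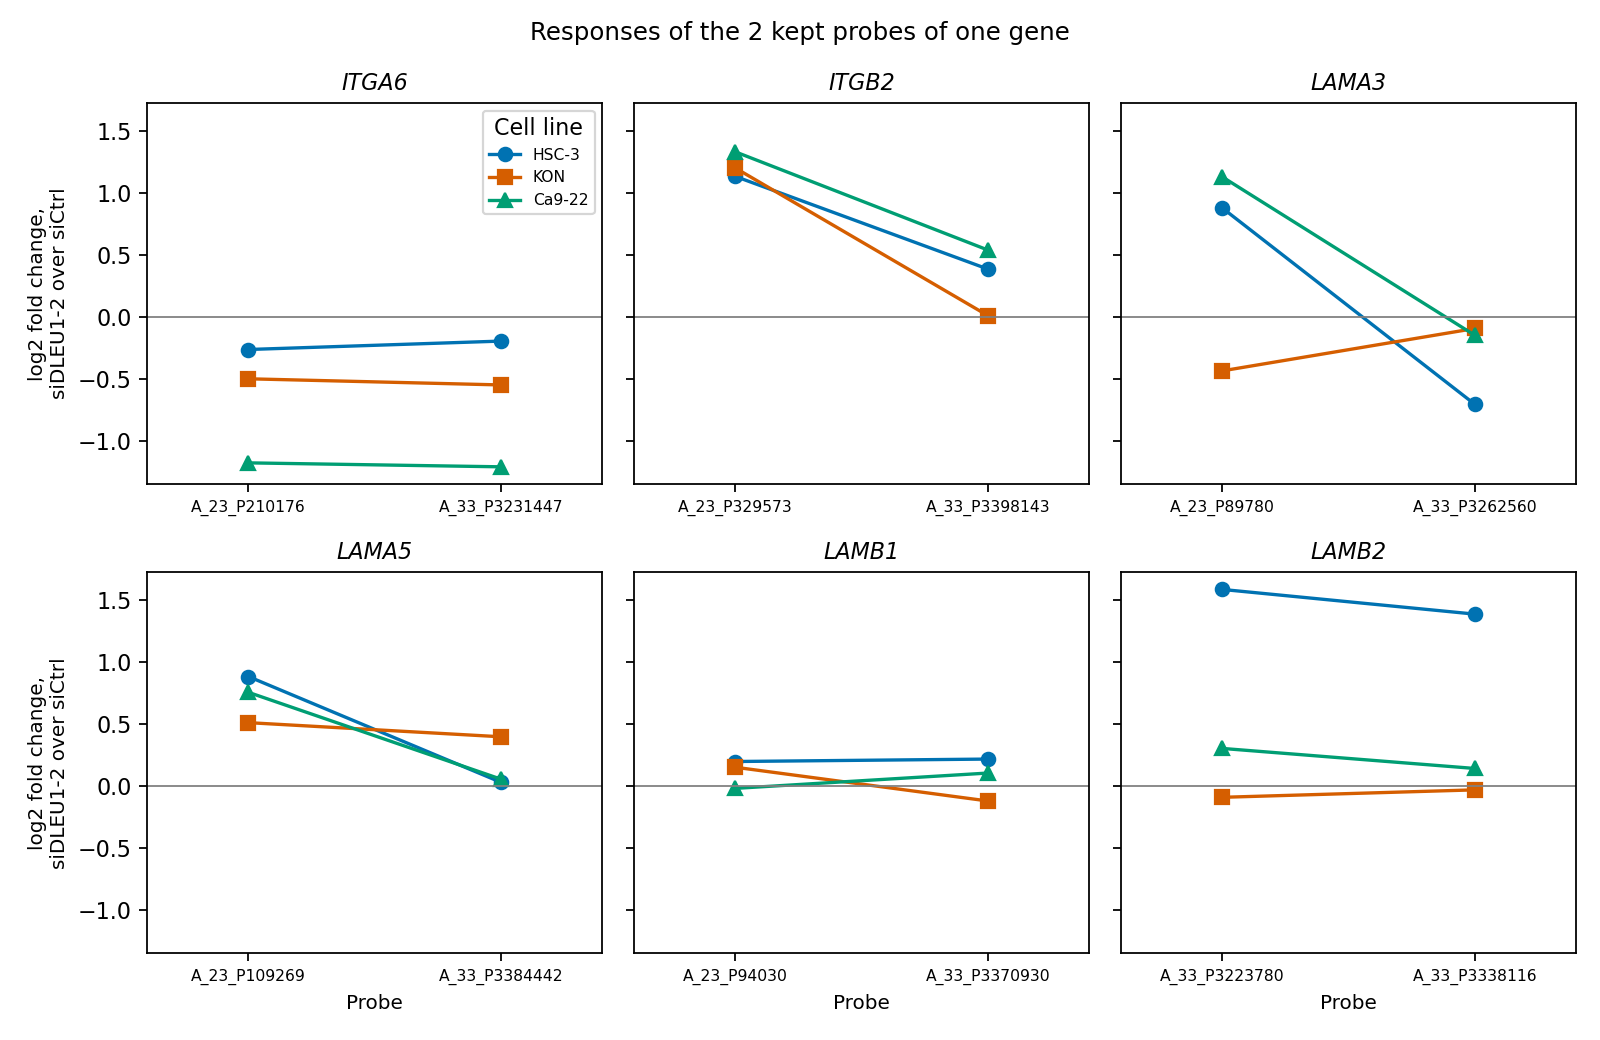
Log2 fold change of both kept probes for the 6 genes with a pair, with 1 line for each cell line. The ITGA6, LAMB1 and LAMB2 lines run almost flat, whereas ITGB2 drops from 1.22 to 0.31 in the mean.

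Over the 5 lists of partners of integrins and laminins, 6 of 89 kept probes were called (6.74%), against 8.5% of all probes. Of the basement membrane genes, 9 of 14 passed the filter, and 2 of their 10 probes were lower and none higher, with a median of 0.15. COL7A1, the collagen of anchoring fibrils, read 10.2 then 4.81 in HSC-3, 14.8 then 8.21 in KON and 8.58 then 4.73 in Ca9-22, and it fell by 0.93 on the log2 scale (SD 0.14, n = 3 lines, limma adjusted p = 0.0334). COL4A5, a collagen IV chain, fell by 1.09 (SD 0.37, adjusted p = 0.0436).

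Of 6 laminin receptors other than integrins, 5 passed the filter with 9 probes, with a median of -0.0056, and 1 was called. SDC1, the epithelial syndecan, read 81.5 then 24.8 in HSC-3, 47.1 then 12.8 in KON and 62.5 then 14.5 in Ca9-22. It fell by 1.90 (SD 0.20, n = 3 lines, limma adjusted p = 0.0227). Of 41 genes of integrin activation and the adhesion complex, 35 passed with 49 probes, 2 were higher and none lower, with a median of 0.18. Of these, TNS3, a tensin of fibrillar adhesions, rose by 1.06 ± 0.30 (SD, n = 3 lines, limma adjusted p = 0.0379).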

How the data were processed

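The authors scanned one-colour Agilent SurePrint G3 Human arrays and deposited the Feature Extraction 10.7.3.1 output, whose gProcessedSignal is a background-corrected intensity for each spot. The study's methods name a t-test, and its results use a 2-fold rule. From the deposited intensity values, outlier spots and controls were left out, spots of a probe were averaged, and log2 values were centred on the 75th percentile of each array. The percentile was an intensity of 200.5 to 257 and 43.0% to 45.7% of probes were well above background, no spot was saturated, and the number of arrays limits the precision. The deposited series table differed from these values by at most 0.497%.

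R 4.3.3 with limma 3.58.1 was used, with cell line as a block, and the same model without it as an alternative. The same line pairs the siRNA arrays, and the correlation of the deviations within lines was 0.83, 0.81 and 0.82. Calls used adjusted p under 0.05. Scripts were tested on simulated data. Alternatives were 2 other centrings and quantile normalization, the series table, normexp (offset 50), a floor, filters, gene means, a 3-fold rule, the methods' t-test, no siRNA term and leaving out each line. Named in the text were called members, those over 2-fold in all lines, disagreeing pairs, ITGB4, 12 epithelial subunits and chains, and called genes of the context lists (hemidesmosome, basement membrane, other laminin receptors, other ligands, adhesion complex) and marker lists (keratinocyte, fibroblast, leukocyte, endothelial, platelet). Other values were added after they were seen. Members and lists were chosen with earlier results of these data known. One called gene of the adhesion complex list is not reported here.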

Additional observations from a re-analysis of the deposited data

Results flagged for a closer look

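At 2 probes outside the comparisons, a signal well above background appeared only after siDLEU1-2. The ITGAX probe at chr16:31393951-31394010, for a leukocyte integrin alpha subunit, read 0.0850 with siCtrl and 0.271 with siDLEU1-2 in Ca9-22, a log2 difference of 1.67 as measured and at least 2.94-fold against the lowest signal well above background, and was not well above background on the other 5 arrays. The LAMA1 probe at chr18:6956742-6958512, whose 60 bases span 1771 bases of the genome, read 0.0195 and 0.142 in Ca9-22, a log2 difference of 2.86 as measured. Since its siCtrl signal lay far below the lowest signal well above background, the difference is at least 1.54-fold. The kept LAMA1 probe was at least 1.19-fold lower in Ca9-22. Each value rests on 1 array.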

How the results depend on the processing

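The 4 called members were the same under quantile normalization, the other centrings and the series table. With normexp 4 were called, 2 of them the same, with LAMA5 and LAMC1 in place of ITGB2 and ITGB8. With the floor 4 were called, 3 the same, with LAMC1 in place of ITGB2. The filter for all 6 arrays, which removes ITGB2, called 5 of 24, of which 3 were the same, and LAMA5 and LAMC1. Calls over the whole array also rose in these 3 settings. They were 2308 with normexp and 1941 with the floor, against 1697 of 19956 in the main fit, and 2065 of 18094 with the filter. Gene means gave 4 of 23 genes, against 1258 of 15281 over the array. The count was 0 with a filter for at least 1 of 6 arrays, with no filter and with the methods' t-test (2 at an unadjusted p under 0.05), and without the replicate block it was 0, with 2 at an unadjusted p under 0.05. Leaving out a line gave 0 to 0 calls, with 8 to 12 at an unadjusted p under 0.05. In each of these settings 0 probes of the whole array were called, so the member count says nothing about the members. Over 2-fold in size in all lines, 2 probes became 1 with normexp, the floor, the filter for all 6 arrays, gene means or a 3-fold rule, and 3 with the looser filters, where the third, a LAMA1 probe, was dim and went in different directions in the lines. The 19 probes that differed between lines became 8 without the siRNA term and 8 to 12 with a line left out. The whole array fell as well, from 10741 of 19956 probes to 5034 without the siRNA term. With a line left out, 4745 to 5539 of 20639 to 21314 probes were called. Adjusted p over the alternatives was 0.012 to 0.484 for ITGB4, 0.0203 to 0.541 for ITGAV, 0.0273 to 1 for ITGB8 and 0.0249 to 1 for ITGB2, and no called probe changed direction. Of 372 values for single probes, 9 changed sign, none of a called probe. LAMA4 became -0.025 under quantile normalization and -0.04 when centred on the median, and LAMB1 -0.0051 under the latter. With a line left out, the mean ranged from -0.23 to 0.27 for LAMA4, -0.0081 to 0.16 for LAMB1, -0.38 to 0.044 for ITGB6, -0.35 to 0.067 for ITGA3, -0.21 to 0.0097 for ITGB5 and -0.061 to 0.22 for ITGB1. The slide could not be used as a block, since all arrays share it. Dim probes such as ITGB2 in Ca9-22 and ITGA2 limit what can be read, and the cause of these changes was not tested.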

Other observations

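Among members outside every comparison, ITGA9 read 0.259 and 0.231 in HSC-3 and 0.0968 and 0.201 in KON, siCtrl first, and was not well above background in Ca9-22. The LAMC3 probe well above background on 4 arrays read 0.230 and 0.198 in KON and 0.102 and 0.131 in Ca9-22, and was not well above background in HSC-3. ITGAM was well above background only on the Ca9-22 array with siCtrl, at 0.113.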
